A study of Mus musculus with 4 samples.

Results

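The 10 genes described here encode enzymes that make, split or use serine, threonine and glycine and carry single-carbon units on folate: Tdh, Gcat, Gldc, Phgdh, Psat1, Shmt1, Shmt2, Mthfd1, Mthfd2 and Mthfd1l. They were found by gene symbol and are 10 of the 21470 genes in the deposited count table. Gcat is listed there under 2 identifiers, so the 10 genes take 11 rows, and the second Gcat row held 1 count in all. Expression was measured in 20 libraries from wild-type mouse embryos of a cross between B6D2F1 males and ICR females. The 4 groups of 5 libraries were E4 ICM, E4 TE, D10 ICM and D10 TE, where ICM (inner cell mass) stands for the side of the blastocyst dissected as embryonic and TE (trophectoderm) for the opposite side. Replicates 1 and 2 of both E4 groups are labelled as having a zona pellucida, and no other library is, so a zona was present at E4 only. E4 precedes and D10 falls in or after embryonic diapause, a reversible arrest of the blastocyst, by the title of the study and by a list of barcodes, which puts D10 on day 6, but the written protocol names every dissected embryo a diapause embryo, so the state of the E4 embryos is given in conflicting ways. The RNA was polyadenylated and was counted at its 3′ ends with barcoded primers (BRB-seq).

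The enzymes form connected routes. Threonine dehydrogenase (Tdh) and glycine C-acetyltransferase (Gcat) turn threonine into glycine and acetyl-CoA in mitochondria, and the glycine cleavage system, whose decarboxylase is Gldc, passes a carbon unit of glycine to tetrahydrofolate. Serine is made from a glycolytic intermediate by Phgdh, Psat1 and Psph in turn, and serine hydroxymethyltransferase, cytosolic (Shmt1) or mitochondrial (Shmt2), moves a carbon unit from serine to folate. Mthfd1 in the cytosol and Mthfd2 and Mthfd1l in mitochondria interconvert the folate-bound units, which serve the synthesis of thymidylate, purines and methionine. Mouse embryonic stem cells, which derive from the ICM, are known for high Tdh and for their dependence on threonine.

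Promoter windows from RefSeq (GRCm38.p6) matched 9 of the 10 genes, Tdh being the exception, with 2 windows for Psat1. The stretches before the start site of 3 genes are shown because these genes, described below, were high together in 1 litter and because the windows overlap no annotated exon. The genomic positions are chr19:15925060-15925309 for Psat1, chr10:127522445-127522694 for Shmt2 (both on the minus strand) and chr10:3972825-3973074 for Mthfd1l (plus strand). Each line gives the 250 bases upstream of the start, 5′ to 3′ on the gene's strand, and capitals mark CCAAT.
Psat1: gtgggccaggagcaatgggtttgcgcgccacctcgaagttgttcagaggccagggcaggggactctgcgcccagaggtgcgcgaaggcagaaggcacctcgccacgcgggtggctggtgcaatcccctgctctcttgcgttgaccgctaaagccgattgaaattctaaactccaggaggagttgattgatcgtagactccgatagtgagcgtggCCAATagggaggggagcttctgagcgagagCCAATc
Shmt2: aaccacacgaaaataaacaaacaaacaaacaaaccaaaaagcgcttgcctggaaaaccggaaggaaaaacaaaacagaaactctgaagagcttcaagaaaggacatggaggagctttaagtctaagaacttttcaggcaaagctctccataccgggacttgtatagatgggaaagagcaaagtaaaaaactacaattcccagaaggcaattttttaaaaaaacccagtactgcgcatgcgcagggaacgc
Mthfd1l: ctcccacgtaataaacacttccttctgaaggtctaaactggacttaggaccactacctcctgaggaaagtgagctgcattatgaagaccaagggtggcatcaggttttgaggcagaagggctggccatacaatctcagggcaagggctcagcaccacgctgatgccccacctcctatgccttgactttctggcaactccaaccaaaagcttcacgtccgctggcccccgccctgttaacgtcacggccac

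The motifs were 3 in number and were searched on both strands of the 300-base windows. The letters TGATGNAA, the core of the element that ATF4 and a C/EBP partner are known to bind, occurred in 3.97% of all 32851 windows and in 0 of the 10 windows of these genes. The E-box CACGTG occurred in 7.15% of all windows and in only the Gcat window among the 10. A further motif, CCAAT, which was added after the windows had been read, occurred in 37.4% of all windows and in windows of 6 of the 9 genes (Gldc, Mthfd1, Mthfd2, Phgdh, Psat1 and Shmt1). No window of these genes held matches to more than a single kind of motif.

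Library totals ran from 144276 to 1010354 counts with a median of 421314.5, and were lowest on average in the E4 TE (307622 ± 167561, SD, n = 5). The level of a gene is given in CPM, its counts as a share of the counts in tested genes after TMM scaling, multiplied by 1e6, and a difference as a log2 fold change ± standard error (SE) from edgeR's quasi-likelihood fit, with Benjamini-Hochberg adjusted p over the 6943 genes tested and a threshold of 0.05. Replicates of a group were mixed before PCR, so a group and its amplification pool cannot be told apart. In bulk tissue, fewer cells of a type and less RNA per cell cannot be told apart either. The summed level of 9 trophectoderm markers was 7184 to 8150 CPM in the E4 TE and 2089 to 2980 CPM in the E4 ICM, against 7269 to 9884 and 3497 to 5445 CPM at D10, and all 9 had counts in every group. The 10 epiblast markers summed to 1538 to 2866 CPM in the E4 ICM and 644 to 1170 CPM in the D10 ICM, and to at most 180 CPM in a TE library, where Pou5f1 and Fgf4 were at 0 in both TE groups. The 10 primitive endoderm markers summed to 2010 to 4538 CPM in the E4 ICM and 7911 to 10870 CPM in the D10 ICM, against 1053 to 1485 and 2666 to 3904 CPM in the TE. In the D10 TE Dab2 alone held 2229 to 3009 CPM, Lama1 169 to 852, Gata6 108 to 186 and Sparc 8.16 to 181 CPM. There Col4a1 held at most 65.7 CPM, Gata4, Pdgfra, Cubn and Sox17 each at most 25.6 CPM, and Sox7 was at 0. At E4, 9 of these 10 markers were called higher in the ICM and 1 lower, beside 15.8% and 15.4% of all tested genes. The 7 uterine epithelium markers summed to 149 to 242 CPM in the E4 TE and 440 to 571 CPM in the D10 TE, without overlap, and to 133 to 503 and 191 to 390 CPM in the ICM, with Ltf and Cxcl15 at 0 in both TE groups. These marker levels move with the comparisons below, and their part in the results was not tested.

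ICM and TE were compared at each time to ask in which tissue the enzymes were expressed more. At E4, 5 of the 8 genes tested were higher in the ICM (Tdh, Gldc, Shmt2, Mthfd1l and Shmt1) and 0 were lower, where 31.2% of all tested genes passed, 15.8% higher and 15.4% lower. At D10, 4 were higher in the ICM (Tdh, Gldc, Psat1 and Shmt2) and 1 lower (Mthfd1), where 25.5% of all tested genes passed, 12.9% higher and 12.6% lower. The median log2 fold change of the 8 genes, ICM over TE, was 0.91 at E4 and 1.11 at D10, beside 0.03 and 0.01 over all genes tested. Tdh, at or near 0 counts in the TE, is the highest of the 8, so its exact value does not move these medians. Gcat and Phgdh were too low for the fit. Of the 8 that passed the filter, Psat1, Shmt1, Shmt2 and Mthfd1 exceeded its level of 23.7 CPM in all 20 libraries, while Tdh (10 libraries) and Mthfd1l (8 libraries) exceeded it in the ICM only. The counts and medians between tissues therefore describe the genes that passed the filter and support nothing about all 10. The differences of Tdh and Gldc at both times, Shmt2 at D10 and Mthfd1l at E4 passed under every alternative in which they could be fitted.

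**Figure D1:**
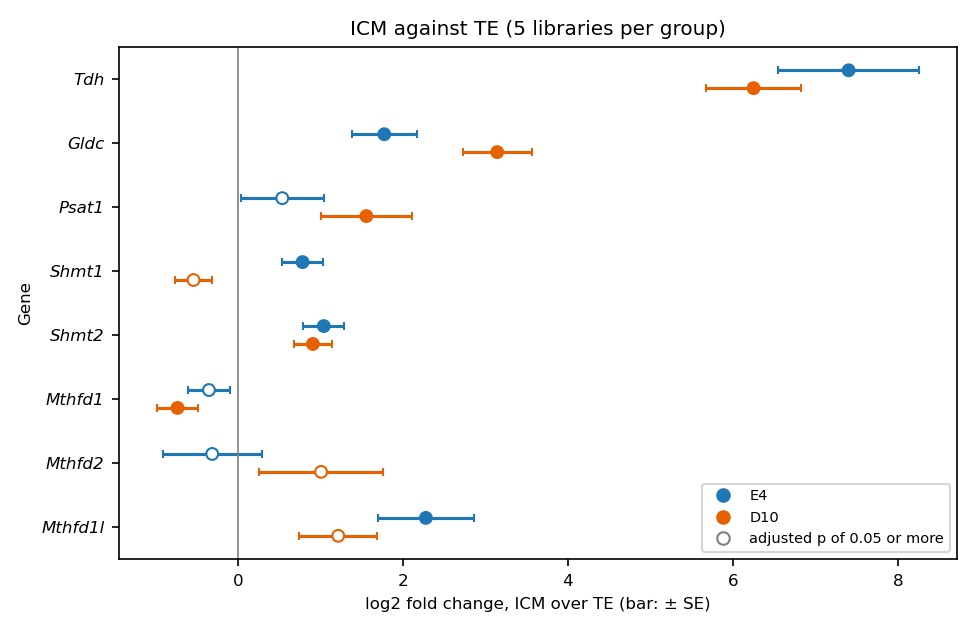
Log2 fold change of ICM over TE for the 8 tested genes (x axis, bars ± SE, 5 libraries per group) at E4 and D10, with filled points for an adjusted p under 0.05. Tdh lies farthest to the right at both times, and Mthfd1 lies left of 0 at both.

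D10 was compared with E4 within each tissue to ask what differed between the times. In the ICM 0 of the 8 genes passed in the edgeR fit, where 23.7% of all tested genes did, 13.7% higher and 9.97% lower. At an unadjusted p under 0.05 there were 2, Tdh (0.022) and Psat1 (0.0197), while DESeq2 called 0 and limma voom called 1. In the TE, 1 gene was higher at D10 (Shmt1) and 3 were lower (Psat1, Mthfd2 and Gldc), where 21.8% of all tested genes passed, 11.9% higher and 9.89% lower. Median log2 fold changes, D10 over E4, were -0.07 in the ICM and 0.23 in the TE, beside -0.0031 and 0.021 over all genes. The change differed between the tissues for 1 gene, Shmt1, where 4.98% of all tested genes passed that test, 3.15% with a more positive change in the ICM and 1.83% with a more negative one. Comparisons within a tissue share their libraries with those between tissues.

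**Figure D2:**
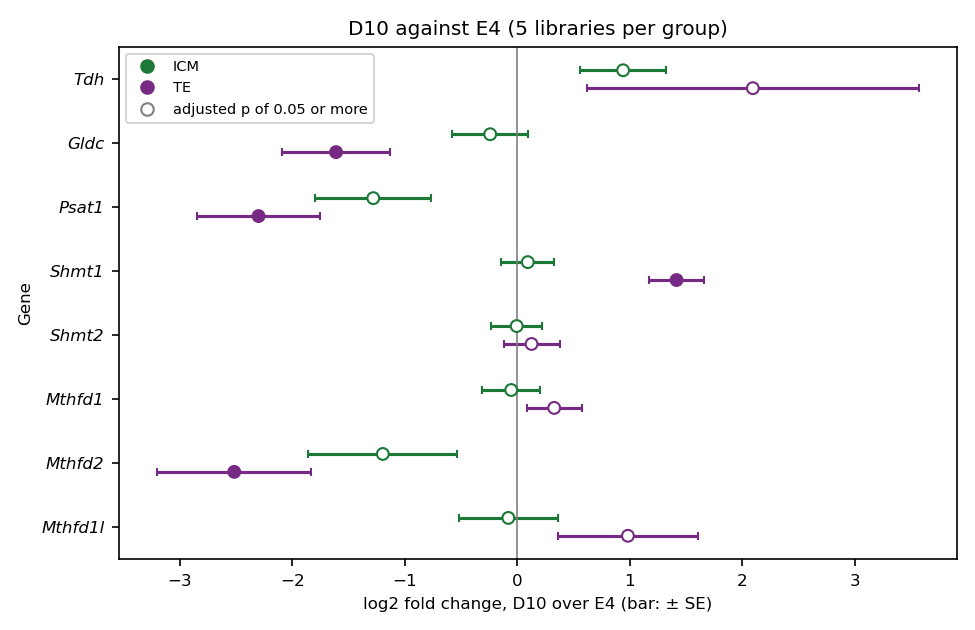
Log2 fold change of D10 over E4 for the 8 tested genes (x axis, bars ± SE, 5 libraries per group) in the ICM and the TE, with filled points for an adjusted p under 0.05. All ICM points are open, and the filled TE points are Gldc, Psat1 and Mthfd2 to the left of 0 and Shmt1 to the right.

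Tdh (ENSMUSG00000021953, GRCm38 chromosome 14, 63492347 to 63509092, minus strand), which starts threonine breakdown, was counted almost only in the ICM libraries. In the E4 ICM the 5 libraries held 228, 88.8, 197, 194 and 155 CPM, and in the D10 ICM 290, 428, 188, 510 and 181 CPM. In the E4 TE, replicate 1 held 5.75 CPM, which is 1 count, and in the D10 TE, replicate 1 held 18.3 CPM, which is 10 counts, while the other 8 TE libraries were at 0. The groups of the tissues did not overlap at either time. Pooled counts were 285 in the E4 ICM and 1 in the E4 TE, a ratio of 248 scaled to library size (exact 95% interval 44.1 to 9817, counting error only). At D10 they were 880 and 10, a ratio of 101 (54.4 to 210). In the edgeR fit the log2 fold change was 7.40 ± 0.85 at E4 (adjusted p = 6.21e-07) and 6.25 ± 0.57 at D10 (1.88e-08). Without D10 TE replicate 1 the pooled ratio was at least 261-fold higher in the ICM, against the 3 counts that 0 allows over the group.

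D10 TE replicate 1 was also the highest of its group for the summed primitive endoderm markers, at 3904 CPM against 2666 to 3681 in the others. The same held for the summed epiblast markers, at 135 CPM against 77.5 to 124 in the others. Of the 10 primitive endoderm markers, 7 were highest there (Gata4, Sox17, Pdgfra, Lama1, Col4a1, Cubn and Sparc), while Dab2 and Gata6 were within the range of the others and Sox7 was at 0 in all 5. The share of all tested genes that were highest in this library was not computed. Gata4, a transcription factor of that lineage, was at 25.6 CPM there and at most 8.02 CPM in the other 4 libraries. The part of primitive endoderm or epiblast cells in the 10 Tdh counts of this library was not tested. Between the times, Tdh in the ICM differed by 0.94 ± 0.39 (adjusted p = 0.0781), and the groups overlapped. That difference passed with limma voom (0.0214), with the 2 groups fitted alone (0.0303), with no low-count filter (0.00237), without D10 ICM replicate 5 (0.0436) and without D10 TE replicate 1 (0.0245). The high D10 libraries, replicates 2 and 4, had the largest totals of that group (660445 and 1010354 counts) and the highest summed primitive endoderm markers (10870 and 10427 CPM). They also had its lowest summed epiblast markers (745 and 644 CPM against 859 to 1170). Summed blood markers were 1.65 and 133 CPM in these 2 libraries and 0 to 27.9 CPM in the others. The part of these traits in the Tdh levels was not tested. The genes whose log2 CPM followed Tdh most closely over the 20 libraries were Col4a1 (Pearson r = 0.954), Fgf10 (0.953) and Foxq1 (0.953), and Col4a1 is itself on the primitive endoderm list.

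Gcat (ENSMUSG00000006378, chromosome 15, 79030874 to 79038353, plus strand), the next enzyme after Tdh, was counted 123 times in all and was not in the fit. Its level was 6.34, 13.1, 11.6, 20.7 and 17.2 CPM in the E4 ICM, and 5.75, 4.15, 4.87, 3.98 and 0 CPM in the E4 TE. Every E4 ICM library was above every E4 TE library, although replicate 1 of each held the same 1 count and they are ordered only by library size. The difference had an exact two-sided permutation p of 0.00794, the smallest that 5 against 5 libraries can give, and 0.0635 adjusted over the 8 tests of Gcat and Phgdh. In the D10 ICM it was 42.8, 29.7, 11.1, 36.7 and 51.1 CPM, and in the D10 TE 12.8, 2.04, 12, 5.24 and 0 CPM. These overlapped through D10 ICM replicate 3, with an exact permutation p of 0.0238 (adjusted 0.0952). With no filter, the edgeR fit gave 2.29 on the log2 scale at D10 (adjusted p = 0.000175) and 1.72 at E4 (0.0939). The D10 ICM mean of 34.3 ± 15.2 CPM (SD, n = 5) stood beside 13.8 ± 5.48 CPM in the E4 ICM (exact permutation p = 0.0397, adjusted 0.106). The overlapping second Gcat row could take reads from the same transcripts.

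Gldc (ENSMUSG00000024827, chromosome 19, 30098447 to 30175429, minus strand), the decarboxylase of the glycine cleavage system, was higher in the ICM at both times and lower in the D10 TE than in the E4 TE. The E4 ICM libraries held 133, 94.0, 134, 155 and 103 CPM and the E4 TE libraries 40.3, 70.5, 17.0, 27.9 and 35.8 CPM, with no overlap. At D10 the ICM libraries held 152, 90.6, 38.8, 175 and 41.8 CPM and the TE libraries 16.4, 18.4, 6.02, 10.5 and 5.46 CPM, again with no overlap. ICM over TE was 1.77 ± 0.40 at E4 (adjusted p = 0.00123) and 3.14 ± 0.42 at D10 (3.37e-06). The difference between those values was 1.37 ± 0.59 and did not pass (adjusted p = 0.19). Replicates 3 and 5 of the D10 ICM were low, and the ICM difference between times was -0.24 ± 0.34 (adjusted p = 0.658).

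In the TE Gldc fell by 1.61 ± 0.48 on the log2 scale from E4 to D10 (adjusted p = 0.0176). The TE groups overlapped, since E4 replicate 3 lay within the D10 range. This fall did not pass with limma voom (0.0764), with libraries thinned to the smallest total (0.35), without both E4 litters that had a zona pellucida (0.19) or without E4 TE replicate 2 (0.0818). Phlda1 (r = 0.938) and Tmem97 (0.927) followed Gldc most closely over the 20 libraries.

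Of the other genes of the glycine cleavage system and its lipoylation, 4 of 6 were tested. Gcsh, the lipoyl carrier protein, was higher in the ICM at E4 (1.11 ± 0.27, adjusted p = 0.00289) and D10 (0.94 ± 0.25, 0.00675). Dld, the dihydrolipoamide dehydrogenase that other complexes also use, went the other way and was lower in the ICM at D10 (-1.02 ± 0.24, adjusted p = 0.00204). Amt, the aminomethyltransferase, was lower in the ICM at D10 (-0.73 ± 0.22, 0.0164) and rose in the TE from E4 to D10 (0.73 ± 0.23, 0.0202), a rise lost in 9 of 30 alternatives, among them no filter, no litter M and the absence of E4 TE replicate 1, 3 or 5 or D10 TE replicate 3 or 5. Lias, lipoic acid synthase, rose in the TE as well (0.98 ± 0.25, 0.00646) and was higher in the ICM at E4 (0.72 ± 0.26, 0.0381), a call lost in 20 of 31 alternatives, DESeq2 and limma voom among them. In the TE, then, 2 of the 4 partners were called higher at D10 and 0 lower, beside 11.9% and 9.89% of all tested genes.

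**Figure D3:**
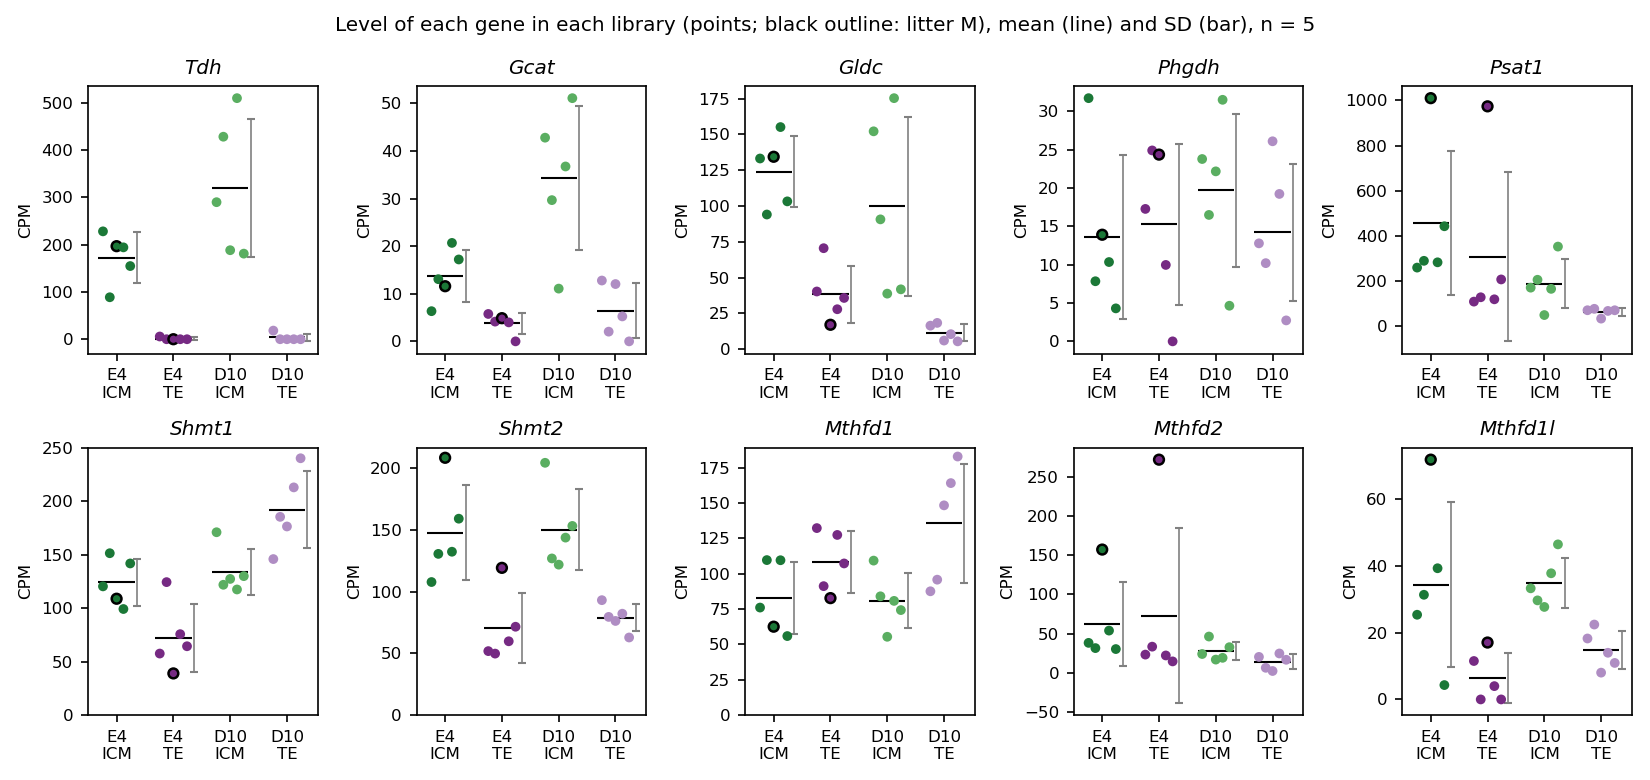
Level of each of the 10 genes in CPM (y axis, a scale per gene) in the 20 libraries, with points for libraries, lines for the mean and bars for SD (n = 5), and a black outline for litter M. Tdh is near 0 in the TE, and Psat1 and Mthfd2 have an outlined library far above the other 4 in both E4 tissues.

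Phgdh (ENSMUSG00000053398, chromosome 3, 98313170 to 98339990, minus strand), which commits carbon to serine synthesis, was low in all groups and was not in the fit. It was counted 131 times in all, with means of 13.6 ± 10.7 CPM in the E4 ICM, 15.3 ± 10.5 in the E4 TE, 19.7 ± 9.98 in the D10 ICM and 14.2 ± 8.89 in the D10 TE (SD, n = 5). The 4 groups overlapped in every comparison, and exact permutation p-values ran from 0.365 to 0.857. At 0 to 30 counts per library, small differences were not detectable.

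Psat1 (ENSMUSG00000024640, chromosome 19, 15904678 to 15947337, minus strand), the aminotransferase that follows Phgdh, was lower in the TE at D10 than at E4, and higher in the ICM than in the TE at D10. The E4 ICM libraries held 260, 290, 1010, 283 and 443 CPM and the E4 TE libraries 109, 129, 974, 120 and 207 CPM. The D10 ICM libraries held 171, 206, 49.9, 166 and 353 CPM and the D10 TE libraries 71.2, 77.5, 34.1, 68.1 and 71.0 CPM. All 5 E4 TE libraries lay above all 5 D10 TE libraries, and the tissues overlapped at both times. The fall in the TE was 2.30 ± 0.55 on the log2 scale (adjusted p = 0.00333). Replicate 3 of both E4 groups, from litter M, was far above the rest. Without litter M in either tissue the fall was 1.10 ± 0.35 and passed (adjusted p = 0.0278), and without E4 TE replicate 3 alone it was 1.11 ± 0.43 and did not (0.0699).

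In the ICM the Psat1 difference between times was -1.28 ± 0.51 (adjusted p = 0.0721), and the groups overlapped. It passed under 6 alternatives, among them library totals alone (0.0354) and no E4 TE replicate 3 (0.0139), and was -0.73 ± 0.32 without litter M (0.103). ICM over TE at D10 was 1.56 ± 0.55 (adjusted p = 0.0379), but this passed by little: leaving out any of 9 D10 libraries in turn took adjusted p to between 0.0502 and 0.109, and thinning took it to 0.145. At E4 it was 0.54 ± 0.50 (0.439). Within litters, Psat1 was higher in the ICM in all 5 E4 pairs and all 5 D10 pairs, and with litter as a block ICM over TE was 0.90 ± 0.23 at E4 (adjusted p = 0.00394) and 1.43 ± 0.24 at D10 (0.000129). Without litter M the E4 difference was 1.19 ± 0.35 (0.0169). The change between times did not differ detectably between the tissues (1.02 ± 0.74, adjusted p = 0.481).

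The genes nearest to Psat1 over the 20 libraries were Nars (r = 0.882) and Tars (0.868), which charge tRNAs with asparagine and threonine, and Mthfd2 (0.850). These correlations share the libraries and include the high pair of litter M. Psph, the phosphatase that completes serine synthesis, had a mean of 37.8 ± 29.6 CPM in the E4 ICM and 58.8 ± 54.7 in the E4 TE, and 17.0 ± 7.74 and 26.1 ± 11.1 at D10 (SD, n = 5). Its D10 over E4 difference was -1.21 ± 0.53 in the TE (adjusted p = 0.103) and -0.96 ± 0.58 in the ICM (0.249).

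Shmt1 (ENSMUSG00000020534, chromosome 11, 60788104 to 60811718, minus strand), the cytosolic serine hydroxymethyltransferase, rose in the TE, and its change there differed from that in the ICM. The E4 TE libraries held 57.5, 124, 38.9, 75.7 and 64.4 CPM and the D10 TE libraries 146, 186, 177, 213 and 240 CPM, without overlap. The rise was 1.42 ± 0.24 (adjusted p = 0.000143), and did not pass only with all libraries thinned to the smallest total (0.98 ± 0.40, 0.133). The E4 ICM libraries held 120, 151, 109, 99.3 and 142 CPM and the D10 ICM libraries 171, 122, 127, 118 and 130 CPM, a difference of 0.09 ± 0.24 (adjusted p = 0.814, 95% interval -0.39 to 0.58). The change in the ICM minus the change in the TE was -1.32 ± 0.34 (adjusted p = 0.0208). It missed the threshold thinned (0.432), without litter M (0.0531), without E4 ICM replicate 2 (0.0519) and without E4 TE replicate 3 (0.0515), and in these 4 cases lay between -1.19 and -1.09.

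Shmt1 was higher in the ICM at E4 (0.78 ± 0.25, adjusted p = 0.0192), while at D10 the sign was the other way without passing (-0.54 ± 0.23, 0.0827). The E4 difference was lost with no filter (0.0643), thinned (0.537), without litter M (0.0851) and without E4 ICM replicate 2 (0.0641), E4 TE replicate 1 (0.0513) or E4 TE replicate 3 (0.0884). The 3′ end of Shmt1 lies within 500 bases of Smcr8 on the other strand, which held 73 counts to 1050 for Shmt1. Whether the counting used strand is not given in the sources used here, so reads of such a pair could not be told apart without it.

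Shmt2 (ENSMUSG00000025403, chromosome 10, 127517123 to 127522444, minus strand), the mitochondrial enzyme, was higher in the ICM at both times and did not differ detectably between them. The libraries held 108, 131, 208, 132 and 159 CPM in the E4 ICM and 51.8, 49.8, 119, 59.8 and 71.5 CPM in the E4 TE. At D10 they held 204, 127, 122, 144 and 153 CPM in the ICM and 93.1, 79.5, 76.2, 82.1 and 62.8 CPM in the TE. The tissues overlapped at E4 through litter M in the TE and did not overlap at D10. ICM over TE was 1.04 ± 0.25 at E4 (adjusted p = 0.00209) and 0.91 ± 0.23 at D10 (0.00463). D10 over E4 was -0.01 ± 0.23 in the ICM (95% interval -0.47 to 0.46) and 0.13 ± 0.25 in the TE (-0.39 to 0.64). The E4 tissue difference was lost only in the thinned libraries (0.86 ± 0.40, adjusted p = 0.145). The 3′ end of Shmt2 lies near that of Ndufa4l2 on the other strand, for which the table holds no row. Slc7a1, a cationic amino acid transporter, followed Shmt2 most closely (r = 0.923).

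The balance of the 2 enzymes can be read as the share of Shmt1 in the counts of both, compared between groups only. It was 46.2% ± 7.95 in the E4 ICM, 50.4% ± 17.0 in the E4 TE, 47.3% ± 2.63 in the D10 ICM and 70.5% ± 6.51 in the D10 TE (SD, n = 5). Every D10 TE library (61.1% to 79.3%) was above every D10 ICM library (45% to 51.1%). The E4 TE ranged most widely, from 24.6% in litter M to 71.4%, and overlapped the D10 TE. The share was not tested apart from its genes.

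**Figure D4:**
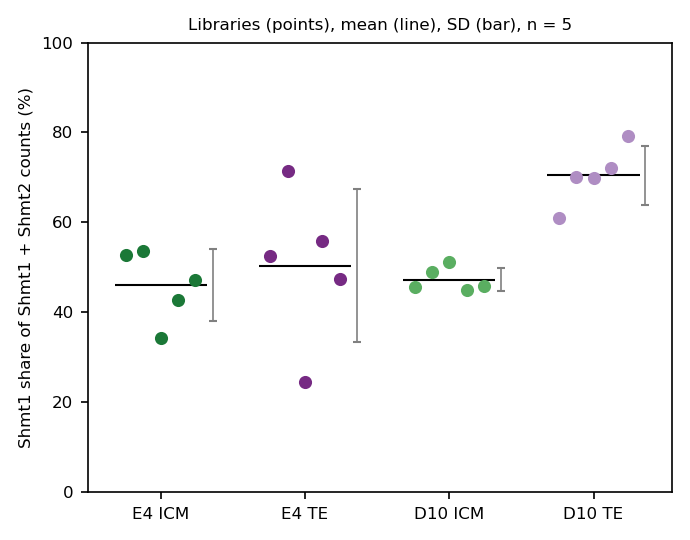
Share of Shmt1 in the summed counts of Shmt1 and Shmt2 (y axis, percent) in the 20 libraries by group, with lines for the mean and bars for SD (n = 5). The 5 D10 TE points, 61.1% to 79.3%, lie above all D10 ICM points, and the E4 TE points spread from 24.6% to 71.4%.

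Mthfd1 (ENSMUSG00000021048, chromosome 12, 76255298 to 76319803, plus strand), the cytosolic trifunctional enzyme, was lower in the ICM at D10, alone among the 8 tested genes in either tissue comparison. The D10 ICM libraries held 109, 84.0, 55.4, 80.8 and 74.3 CPM and the D10 TE libraries 87.6, 95.8, 148, 164 and 183 CPM. The groups overlapped through D10 ICM replicate 1, and the difference was -0.73 ± 0.25 (adjusted p = 0.0296). It missed the threshold under 10 of 31 alternatives, 7 of which left out a D10 library (adjusted p 0.0549 to 0.0938), with the others at library totals alone (0.0513), the 2 groups alone (0.0546) and thinned libraries (0.151). At E4 the means were 82.8 ± 25.6 CPM for the ICM and 108 ± 21.7 CPM for the TE (SD, n = 5, -0.35 ± 0.26, adjusted p = 0.322). Between the times the values were -0.05 ± 0.26 in the ICM and 0.33 ± 0.25 in the TE, and neither passed (0.912 and 0.368).

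Mthfd2 (ENSMUSG00000005667, chromosome 6, 83305691 to 83325908, minus strand), a mitochondrial dehydrogenase and cyclohydrolase, was low outside litter M. The libraries held 38.0, 31.3, 158, 53.8 and 30.1 CPM in the E4 ICM and 23.0, 33.2, 273, 21.9 and 14.3 CPM in the E4 TE, where replicate 3 is litter M. At D10 they held 23.8, 46.1, 16.6, 18.9 and 32.5 CPM in the ICM and 20.1, 6.12, 2.01, 24.5 and 16.4 CPM in the TE. The groups overlapped in every comparison. D10 over E4 in the TE was -2.51 ± 0.68 (adjusted p = 0.0093), and that call rests on E4 TE replicate 3: without it the value was -0.76 ± 0.61 (0.414), and without litter M -0.75 ± 0.51 (0.318). It also missed with limma voom (0.0631). The corresponding ICM value was -1.19 ± 0.66 (adjusted p = 0.202, and 0.0114 with no filter). ICM over TE at E4 was -0.31 ± 0.60 and turned to 1.43 without E4 TE replicate 3, and neither passed (0.728 and 0.0535).

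Mthfd1l (ENSMUSG00000040675, chromosome 10, 3973118 to 4167081, plus strand), the mitochondrial formate-producing enzyme, was higher in the ICM at E4. The libraries held 25.4, 31.3, 71.8, 39.3 and 4.30 CPM in the E4 ICM and 11.5, 0, 17.0, 3.98 and 0 CPM in the E4 TE. The groups overlapped through E4 ICM replicate 5, which held 1 count, and the difference was 2.28 ± 0.58 (adjusted p = 0.0038). At D10 the libraries held 33.3, 29.7, 27.7, 37.8 and 46.4 CPM in the ICM and 18.3, 22.4, 8.02, 14 and 10.9 CPM in the TE. These did not overlap, and the difference was 1.22 ± 0.47 (adjusted p = 0.0589), which passed under 11 of 29 alternatives, among them litter as a block (0.0222) and DESeq2 (0.0469). Between the times it was -0.08 ± 0.44 in the ICM and 0.98 ± 0.62 in the TE (adjusted p = 0.925 and 0.275). Counts were low, 191 in all.

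Litter M supplied replicate 3 of both E4 groups and stood apart in several of these genes. Its ratio to the mean of the other 4 litters was 3.17 in the ICM and 6.89 in the TE for Psat1, and 4.11 and 11.8 for Mthfd2. For Shmt2 it was 1.57 and 2.05, and for Mthfd1l 2.86 and 4.40, on 31 and 7 counts. These 4 genes were above every other E4 litter in both tissues, whereas Tdh, Gcat, Gldc, Phgdh, Shmt1 and Mthfd1 were not. Highest in litter M were 20.8% of all tested genes in the E4 ICM and 23.4% in the E4 TE, and the share in both was not computed. Gldc, Shmt1 and Mthfd1 were instead the lowest of the 5 in the TE of litter M, at 17.0, 38.9 and 82.8 CPM. Its totals of 403723 and 466895 counts were within the range of the other E4 libraries. Its ICM library had the highest summed primitive endoderm markers of the E4 ICM (4538 CPM against 2010 to 3455). The same library was highest for uterine epithelium markers (503 against 133 to 312 CPM). Its TE library had the highest summed epiblast markers of the E4 TE (180 against 85.9 to 141 CPM). The remaining sums of these lists lay within the range of the others. The part of these markers was not tested. As the litter was singled out by its values, no test is given.

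Genes on a list of targets of ATF4, the transcription factor of the amino acid response, were high in the same libraries. Of the 15 list genes, none of them among the 10, with at least 10 counts over the E4 libraries, 11 were highest in litter M in the E4 ICM and 11 in the E4 TE, and no other litter was highest for more than 2. Of all tested genes, 20.8% were highest in litter M in the E4 ICM and 23.4% in the E4 TE. Tested genes met a stricter count filter, which 7 genes of the list passed, so the 2 shares come from unlike sets. Asns, asparagine synthetase, was at 169 CPM in the ICM of litter M against 78.6 to 146 in the others, and at 153 against 17.3 to 42.9 CPM in the TE. Atf5, another such factor, named after its values were seen, was at 62.5 against 12.4 to 38.0 CPM in the ICM and 202 against 11.5 to 29.0 CPM in the TE. Psph, which is not on that list, reached 88.0 against 14.5 to 38.0 CPM and 148 against 12 to 71.5 CPM in the 2 tissues. Atf4 itself, which is on the list, was 1.44 and 2.08 times the mean of the others.

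**Figure D5:**
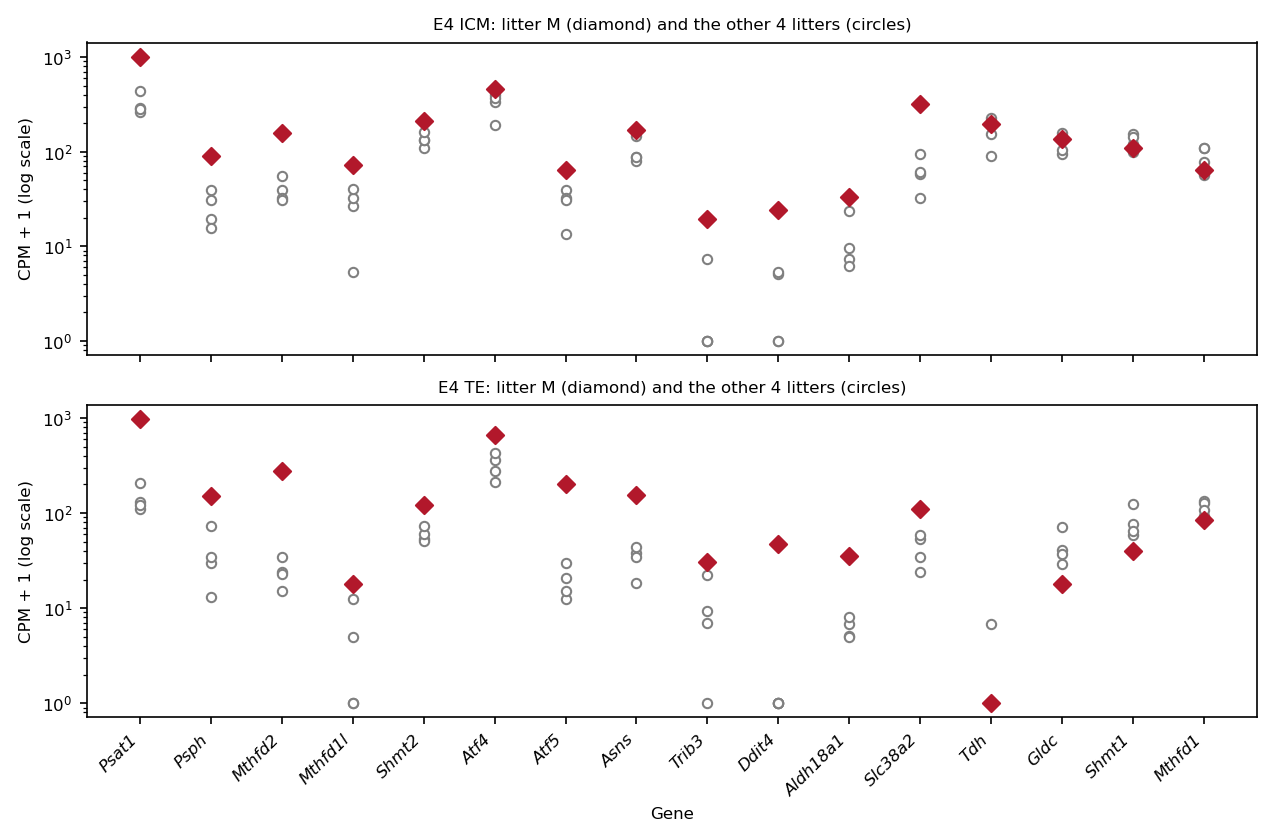
Level of 16 genes in the 5 E4 ICM libraries (upper panel) and the 5 E4 TE libraries (lower panel), as CPM + 1 on a log axis, with diamonds for litter M and circles for the other 4 litters. The diamonds lie above the circles in both panels for Psat1, Psph, Mthfd2, Mthfd1l, Shmt2, Atf4, Atf5 and Asns, and among or below them for Tdh, Gldc, Shmt1 and Mthfd1.

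Over all E4 and D10 libraries the ATF4 list moved in no single direction. In the TE 1 of 7 tested genes was higher at D10 and 3 lower (11.9% and 9.89% of all tested genes), with Atf4 at -1.10 ± 0.28 (adjusted p = 0.00606), Eif4ebp1 at -1.43 ± 0.40 (0.0118) and Nupr1, a stress-response factor, at 3.61 ± 0.56 (4.33e-05). In the ICM 2 were higher and 1 lower (13.7% and 9.97% of all tested genes), again with Nupr1 higher (1.72 ± 0.61, 0.0404, lost in 10 of 30 alternatives) and Eif4ebp1 lower (-1.74 ± 0.38, 0.00154). Eif4ebp1 in the TE did not pass with limma voom, thinned, without E4 TE replicate 3 or without litter M (-0.66, 0.208).

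Routes that consume the carbon units were compared by lists, beside 15.8% of all tested genes higher and 15.4% lower in the ICM at E4, and 12.9% and 12.6% at D10. Of 8 genes of thymidylate and deoxynucleotide supply, 6 were higher in the ICM at E4 and 0 lower (median 0.97), and 4 were higher and 0 lower at D10 (median 0.91). Dctpp1, a dCTP pyrophosphatase, was higher by 2.05 ± 0.30 at E4 (adjusted p = 1.01e-05) and Dut, dUTPase, by 1.55 ± 0.24 (2.85e-05). Tyms, thymidylate synthase, did not differ detectably between the tissues at either time (-0.08 ± 0.25 and 0.48 ± 0.25), and was lower in the D10 TE than the E4 TE (-0.81 ± 0.25, 0.0213), which was lost with no filter, thinned, without the zona litters and without E4 TE replicate 2. Of 13 purine genes tested, 6 were higher in the ICM at E4 and 1 lower (median 0.77), and 4 and 1 at D10 (median 0.42). Ppat, the first committed enzyme, was higher by 1.34 ± 0.29 at E4 (0.00091) and 1.21 ± 0.28 at D10 (0.002), and Prps1, which makes its substrate, was lower at E4 (-0.77 ± 0.25, 0.0186) and D10 (-1.04 ± 0.24, 0.00236). Paics, a later step, rose in both tissues from E4 to D10, by 0.59 ± 0.18 in the ICM (0.0222, lost in 4 of 30 alternatives) and 1.45 ± 0.19 in the TE (4.93e-06).

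In the methionine cycle and transsulfuration, 3 of 10 tested genes were higher in the ICM at E4 and 1 lower, and 2 and 1 at D10, so that the share passing was near the 31.2% and 25.5% of all tested genes. Cth, cystathionine gamma-lyase, was higher in the ICM at E4 (3.08 ± 0.59, adjusted p = 0.000256) and D10 (2.23 ± 0.45, 0.000531). Cbs, cystathionine beta-synthase, which uses serine, was 190 ± 38.2 CPM in the E4 TE and 33.2 ± 16.2 in the D10 TE (SD, n = 5), a fall of 2.52 ± 0.30 on the log2 scale (1.21e-06). At E4 and D10 the ICM held 58.4 ± 21.9 and 48.1 ± 18.0 CPM, and the change differed between the tissues by 2.35 ± 0.44 (adjusted p = 0.00167). Mtap, of methionine salvage, rose in the ICM (1.48 ± 0.27, 0.000257) and the TE (2.12 ± 0.31, 1.89e-05).

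Among 9 tested genes of serine synthesis and amino acid transport, 3 were higher at D10 in each tissue and 0 lower, beside 13.7% of all tested genes higher in the ICM and 11.9% in the TE. Between tissues 1 was higher and 2 lower in the ICM at E4, and 2 and 3 at D10. Slc38a4, an amino acid transporter, was lower in the ICM at both times (-1.54 ± 0.27, adjusted p = 8.91e-05, and -0.98 ± 0.25, 0.00453). The gene higher in the ICM at E4 was Slc1a5 (3.65 ± 0.66, adjusted p = 0.000157). Those higher in the ICM at D10 were Slc38a2 (2.67 ± 0.46, adjusted p = 8.52e-05) and Slc38a1 (1.26 ± 0.32, 0.00446). Sfxn1, the mitochondrial serine carrier, rose by 1.08 ± 0.29 in the ICM (adjusted p = 0.00784) and 1.51 ± 0.30 in the TE (0.000722). Slc1a5, a neutral amino acid transporter, changed differently in the tissues: it was 6.26 ± 3.82 CPM in the E4 TE and 174 ± 122 in the D10 TE, and 93.1 ± 48.7 and 70.0 ± 35.2 CPM in the ICM at those times (SD, n = 5, difference of the changes -4.98 ± 0.80, adjusted p = 0.000286). Slc38a1, another such transporter, rose in the ICM (2.21 ± 0.36, adjusted p = 9.89e-05), with 38.2 ± 19.7 and 174 ± 41.1 CPM in the ICM at E4 and D10, and 69.0 ± 36.9 and 71.2 ± 30.9 CPM in the TE (difference of the changes 2.03 ± 0.51, 0.0187, lost thinned, without the zona litters and without litter M). Among folate enzymes and carriers 4 were tested, and Folr1, a folate receptor, was lower in the ICM at E4 (-1.60 ± 0.26, 4.29e-05) and D10 (-0.94 ± 0.25, 0.00549). Of 3 tested genes that use glycine or break down serine, Alas1, the first enzyme of heme synthesis, rose in the ICM (1.05 ± 0.34, 0.027, lost in 7 of 30 alternatives) and the TE (1.68 ± 0.30, 0.000192).

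Among the 8 tested genes themselves, log2 CPM over the 20 libraries ran most closely for Psat1 and Mthfd2 (Pearson r = 0.850), Tdh and Shmt2 (0.819) and Tdh and Gldc (0.805). Mthfd1 ran against Tdh (-0.615), and Shmt1 against Mthfd2 (-0.524). These values describe 20 libraries in 4 groups, which share pools and litters, and are not tests.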

How the data were processed

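The authors deposited raw counts for each gene in each of 20 barcoded libraries (21470 genes, 912 of them at 0 throughout). Tools named in the submitters' processing notes are HISAT2 2.2.1, featureCounts 2.0.1, UMI-tools and Trim Galore 0.6.7, beside GRCm38 and GRCh38, without roles. Whether UMIs were collapsed or strand was used, and the annotation, is not given in the sources used here, and intervals of pooled count ratios cover counting error only, while those of log2 fold changes come from the fit. Gene positions are from GENCODE M21 (GRCm38).

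Counts were fitted with edgeR 4.0.16 in R 4.3.3 (quasi-likelihood test, TMM, filterByExpr with a minimum count of 10, all 4 groups in 1 fit), which kept 6943 genes. DESeq2 1.42.0 and limma 3.58.1 were alternatives. Nothing says if a library is 1 embryo, and p-values therefore reflect only how far these libraries vary. Libraries within a group all differed by more than counting noise (lowest chi-square per degree of freedom 2.58).

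The deposited barcode list ties ICM and TE replicates of the same number to 1 litter within a time. Their deviations from group means correlated at 0.104 to 0.263 at E4 and -0.0302 to 0.293 at D10, so litter served as a block in an alternative. Named genes were the 10 members and, per pathway list and comparison, up to 3 called genes with the smallest adjusted p plus direct enzyme partners, and the genes closest to a member by Pearson r of log2 CPM. Alternatives were other size factors, filters and tools, thinning, the 2 groups alone, and libraries or litters left out. The members and lists were chosen with earlier results of these data known.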

Additional observations from a re-analysis of the deposited data

Results flagged for a closer look

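In 72 groups of 5 libraries checked, 8 had a library set apart from the other 4 by more than Dixon's 95% limit, where chance gives about 5% of groups. Tdh was set apart in E4 TE replicate 1 (5.75 CPM) and D10 TE replicate 1 (18.3 CPM), with 0 in the other 4 of each, a pattern in which any count at all exceeds the limit. Psat1 was high in litter M in the E4 ICM (1010 CPM, next 443) and E4 TE (974 CPM, next 207), and low in D10 TE replicate 3 (34.1 CPM, next 68.1). Mthfd2 was high in litter M in the E4 ICM (158 CPM, next 53.8) and E4 TE (273 CPM, next 33.2). Shmt1 was high in D10 ICM replicate 1 (171 CPM, next 130).

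The D10 minus E4 change differed between ICM and TE in the edgeR test of that difference for Shmt1 (-1.32 ± 0.34, adjusted p = 0.0208), Slc1a5 (-4.98 ± 0.80, 0.000286), Slc38a1 (2.03 ± 0.51, 0.0187) and Cbs (2.35 ± 0.44, 0.00167), on the log2 scale as ICM minus TE.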

How the results depend on the processing

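For the 8 tested genes, 1187 values of 40 gene results were computed under alternatives: 1071 kept direction and side of the threshold, 40 lost the call, 26 gained one and 50 turned direction. For the other named genes 2055 of 2243 values kept both and 188 lost the call. No value that passed in the reported fit turned direction. Leaving out litter M was chosen after seeing the data. A minimum count of 30 removed Mthfd2 and Mthfd1l, and DESeq2 gave Mthfd2 no adjusted p. The cause of changes was not tested, except that thinning leaves fewer counts.

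Counts of called genes take in Gcat or Phgdh where a refit kept them, so some include a gene outside the 8. The 7 called at D10 without E4 ICM replicate 3, given below as the highest count, are such a case. The number of the 10 genes called was, for D10 against E4 in the ICM (0 in the reported fit), 1 with library totals alone, voom or no zona litters, 2 with the 2 groups alone, 3 with no filter and 0 to 2 with a library left out. In the TE (4) it was 2 with voom, 1 thinned and 2 to 4 with a library left out, lowest without E4 TE replicate 3. Between tissues it was 2 thinned at E4 (5) and 3 thinned at D10 (5), and 4 to 6 and 3 to 7 with a library left out, lowest at D10 when D10 ICM replicate 2 or 4 was absent. For the difference of the changes (1) it was 0 thinned or without litter M, and 0 to 1 with a library left out, with 0 when E4 ICM replicate 2 or E4 TE replicate 3 was absent. Genes called among all tested were, thinned, 404 and 346 across time in ICM and TE, 680 and 539 between tissues at E4 and D10, and 61 for the difference. With a minimum count of 30 they were 1003 across time in the TE, and 1404 and 1170 between tissues. For the difference they were 538 with no filter and 198 without the zona litters. With litter as a block they were 2356 (2165 without) at E4, 1952 (1771) at D10 and 496 (346) for the difference. Among the 10 genes the block changed the calls of Psat1 at E4 and Mthfd1l at D10 and no other.

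Log2 values that turned direction, none passing on the side opposite to the reported value, were as follows. For Tdh in the TE across time voom gave -0.35 and leaving out a library -1.65 to 3.79, and for its difference of changes voom gave 1.27, thinning 0.10 and a library left out -2.83 to 2.61. Mthfd1 across time in the ICM was 0.086 without the zona litters and -0.14 to 0.091 with a library left out. Psat1 with a library left out was -0.042 to 1.71 between tissues at E4 (1.71 passing, adjusted p = 0.0032) and -0.14 to 1.61 for the difference. Shmt2 across time in the ICM was 0.022 with median-of-ratios factors, 0.016 with DESeq2, 0.021 with a minimum count of 30, 0.024 with 2 groups, 0.0070 with no filter, 0.22 thinned, 0.18 without litter M and -0.11 to 0.18 with a library left out. In the TE it was -0.20 thinned, -0.13 without the zona litters and -0.0039 to 0.44 with a library left out, and its difference was 0.42 thinned and -0.42 to 0.076 with a library left out. Shmt1 in the ICM across time was -0.10 with library totals alone and -0.15 thinned. Mthfd1l there was 0.075 with voom, 0.39 without litter M and -0.30 to 0.40 with a library left out. Mthfd2 between tissues at E4 was 0.20 with voom, 0.13 with litter as a block, 0.70 without litter M and -1.08 to 1.43 with a library left out, and its difference was -0.40 to 2.10.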

Other observations

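Bhmt, betaine-homocysteine methyltransferase, which remakes methionine from betaine without folate, was counted almost only at E4, and is named because its values stood out. The E4 ICM libraries held 266, 282, 2.32, 18.6 and 133 CPM, with the 2 litters that had a zona pellucida highest and litter M lowest. The E4 TE libraries held 23.0, 33.2, 0, 9.96 and 7.15 CPM, again with the zona litters highest. At D10 it had 1 count over the 5 ICM libraries and 4 over the 5 TE libraries. It did not pass the count filter, and no test is given.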
